A study of Homo sapiens with 9 samples.

Results

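The human HOX genes are described here as they were read in RNA of HEK293T, an established cell line derived from human embryonic kidney and transformed with SV40 large T antigen. The members were chosen by name, not by their values: 38 protein-coding HOX genes of the 4 clusters, of 60683 gene IDs in the deposited count files. They comprise 10 genes of HOXA, 10 of HOXB, 9 of HOXC and 9 of HOXD. RNA came from 3 groups of 3 libraries each. Parental HEK293T cells carried no reporter. Clone 15 and clone 37 each grew from 1 sorted cell after piggyBAC transposition of a pair of luciferase constructs, ATG-(CAG)60-Myc-NLuc with 60 CAG units and ATG-(CAG)0-Myc-FLuc with 0. Per the labels, both integrands are expressed at a high level in clone 37 and at a low level in clone 15. Each level was thus represented by 1 clone, and the integrand level cannot be told apart from other differences between the clones. Nothing in the labels says that the replicates were separate cultures, so p-values measure the spread between these libraries, which may be technical.

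HOX genes encode homeodomain transcription factors that give cells of the embryo their position along the head-to-tail axis and, in limbs and genitourinary organs, from the trunk outwards. In each cluster the genes lie in the order in which they act, from anterior genes (paralog groups 1 to 3) through central genes (groups 4 to 8) to posterior genes (groups 9 to 13), and genes with the same number in different clusters are paralogs descended from one ancestral gene. PBX and MEIS proteins bind DNA together with HOX proteins, Polycomb and Trithorax complexes keep the clusters silent or active, and retinoic acid switches on their anterior genes. In the embryo, genes of paralog group 11 are needed for the kidney to form. A cultured line often keeps part of the positional pattern of the tissue it came from.

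Gene counts summed to 10334090 to 38093340 per library. The clone 15 libraries were the deepest and were read at 100 bp, against 75 bp in the others, so read length and depth cannot be told apart from clone 15. Parental replicate 2 stood apart from its group: it was the lowest parental library for 23 of the 38 members, 16 of 22 in groups 1 to 8 and 7 of 16 in groups 9 to 13. Of 12 markers of HEK293T cells, 11 were read in all 9 libraries and NEFH was near 0. Their summed level was 1456 to 1766 CPM (counts per 1000000 gene counts) in parental, 955 to 1023 in clone 37 and 4165 to 4307 in clone 15, where NEFM made up most of it. Among 13 markers of other cell types, HBB, KRT5 and KRT14 had 0 counts throughout, and PTPRC, CDH5, PECAM1 and LYZ stayed under 0.3 CPM. COL1A1 was read at 32.9 to 35.5 CPM in parental, 18.4 to 20.7 in clone 37 and 48.3 to 108 in clone 15, and ACTA2 at 2.31 to 8.14 CPM over all libraries. COL1A2 had 0 counts in every parental and clone 37 library and 5.59, 12.2 and 56.8 CPM in clone 15 replicates 1, 2 and 3. The summed level of the 13 markers was 57.9 to 168 CPM in clone 15, 39.0 to 43.2 in parental and 23.5 to 25.5 in clone 37. The part of this in the clone 15 values was not tested. In bulk RNA, fewer cells that express a gene and less of its RNA per cell cannot be told apart.

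HEK293T cells expressed nearly the whole HOX complement. At least 1 CPM on average was read for 36 of the 38 members in parental, 35 in clone 15 and 34 in clone 37, and at least 10 CPM for 25, 28 and 26. HOXB1, the most anterior HOXB gene and a hindbrain gene in the embryo, was without a count in every parental and clone 15 library, and clone 37 gave it 1, 0 and 1. Pooled over a group's libraries, a count of 0 has an upper limit of 0.0976 CPM in parental and 0.0453 in clone 15. These are the ends of 95% Poisson intervals, for counting error only. HOXD12 had few counts as well: 3, 6 and 5 in the parental libraries, 21, 12 and 15 in those of clone 15 and 5, 0 and 2 in those of clone 37. These 2 genes fell under the filter on low counts, and the other 36 were tested in each comparison.

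Per kilobase of exon, HOXB9 was the most abundant member in each group, at 55.8 ± 1.71 CPM per kb (parental), 71.3 ± 3.01 (clone 15) and 59.2 ± 3.42 (clone 37; SD, n = 3). HOXB9 is the last gene of the main HOXB block, ahead of the distant HOXB13. In parental cells it was followed by HOXD13 (43.2), HOXA5 (35.6), HOXD10 (32.8) and HOXA13 (24.2 CPM per kb). HOXB9 and HOXD13 each stood clear of the next gene in that order, while HOXA5, HOXD10 and HOXA13 each overlapped their next neighbour across the 3 libraries. The order was not that of position. The lowest HOXA gene was anterior HOXA2 (1.30) and the highest central HOXA5, while in HOXD the posterior gene HOXD12 (0.270 CPM per kb) lay below anterior HOXD1 (0.597). In HOXC the posterior gene HOXC12 (0.490 CPM per kb) was the lowest and its neighbour HOXC13 reached 8.37. One gene changed its rank by far in the clones. HOXA13 went from place 5 in parental to place 16 in both clones.

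**Figure D1:**
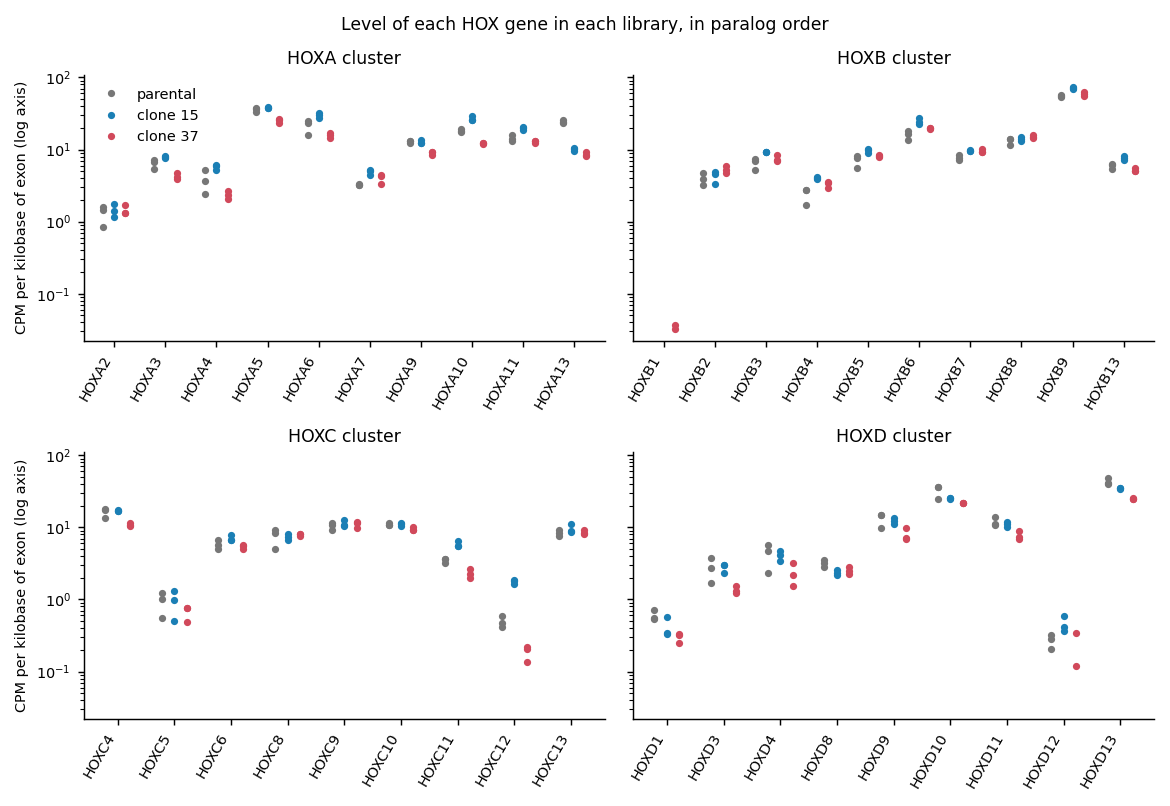
Level of each HOX gene in CPM per kilobase of exon (log axis), by cluster and in paralog order, with 1 point per library; libraries with 0 counts (HOXB1 and 1 clone 37 library of HOXD12) have no point on a log axis. HOXB9 is highest in all 3 groups (55.8, 71.3 and 59.2 CPM per kb), and the points of HOXA13 and HOXC12 fall apart by group.

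Against parental cells, clone 37 had lower counts of many HOX genes outside HOXB. With edgeR's quasi-likelihood test at an adjusted p under 0.05, 21 of the 36 tested members were called (58.3%), against 54% of all 16501 genes tested. The share of calls was thus near the background, and the directions were uneven. Of the members, 17 were lower (47.2%, background 27.3%) and 4 were higher (11.1%, background 26.7%). The median log2 fold change was -0.40, against 0.02 over all genes. Falls of at least 2-fold were called for HOXA13, HOXC12 and HOXD3, 3 of 36, with 9% of all genes called at 2-fold or more in either direction. By cluster, 7 of 10 HOXA genes, 4 of 9 HOXC genes and 6 of 8 tested HOXD genes were lower, and the 4 higher genes were HOXB2, HOXB4, HOXB6 and HOXB7. By position, 10 of 15 posterior genes were lower, against 4 lower and 3 higher of 15 central genes and 3 lower and 1 higher of 6 anterior genes. The 4 higher calls were less stable than the lower ones: leaving out any 1 clone 37 library brought them to 1, and the lower calls to between 14 and 16. Tested against the genes around each cluster, as described further on, 8 members were lower (22.2%), near the 23% of all genes called lower in that test.

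Clone 15 had more HOX genes higher than lower against parental cells. Here 18 of 36 members were called (50%), against 51.4% of 17703 genes. Higher counts were called for 14 (38.9%, background 25.1%) and lower counts for 4 (11.1%, background 26.2%), with a median log2 fold change of 0.09 against 0.01 over all genes. HOXC12 (higher) and HOXA13 (lower) were the 2 members called at 2-fold or more, against 10.1% of all genes. The higher genes were 6 of HOXA, 6 of HOXB, and HOXC11 and HOXC12. The lower genes were HOXA13 and 3 of HOXD (HOXD8, HOXD10 and HOXD13). Without clone 15 replicate 3, the library highest in collagen, 13 members were higher and 4 lower. The count of lower genes was 2 without clone 15 replicate 1, without clone 15 replicate 2, or with all libraries thinned to the smallest.

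Set against each other, the clones differed in 25 of 36 members (69.4%, background 57.7%), and every one of the 25 was lower in clone 37 (background 29%). No member was called higher in clone 37 by edgeR (background 28.7%) or by DESeq2, and HOXB2 alone was higher at edgeR's unadjusted p under 0.05. The lower genes were 8 of HOXA, 6 of HOXB, 5 of HOXC and 6 of HOXD, with a median log2 fold change of -0.39 over the 36 members. Of the posterior genes, 13 of 15 were lower. At 2-fold or more 5 members were called, HOXA4, HOXA10, HOXC11, HOXC12 and HOXD3, against 11.9% of all genes. The parental libraries do not enter this comparison.

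Summed over each cluster, the 4 clusters took different courses. HOXA gave 413, 379 and 401 CPM in parental, 387, 414 and 395 in clone 15, while clone 37 had 244, 247 and 243. Clone 15 and parental overlapped there, and all clone 37 libraries lay below both. HOXB gave 335, 308 and 335 CPM in parental, 419, 442 and 434 in clone 15, against 368, 367 and 360 in clone 37, so that both clones lay above parental and clone 15 above clone 37. HOXC gave 163, 142 and 167 CPM in parental, 175, 186 and 178 in clone 15, and clone 37 gave 135, 137 and 132. HOXD gave 273, 237 and 273 CPM in parental, 213, 221 and 212 in clone 15, while clone 37 had 156, 169 and 159. In HOXC the order was clone 15, parental, clone 37, and in HOXD parental, clone 15, clone 37, with no overlap between groups in either cluster. These sums weight the abundant genes most and describe these libraries only.

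**Figure D2:**
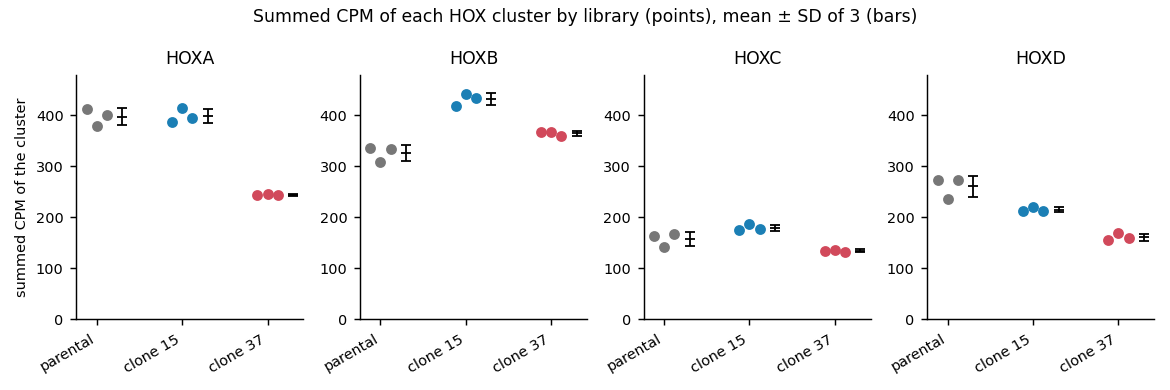
Summed CPM of the members of each cluster (vertical axis from 0), with 1 point per library and a bar for the mean ± SD of 3 libraries. Clone 37 is lowest in HOXA (244 ± 2.11), HOXC (135 ± 2.50) and HOXD (161 ± 6.78), and parental is lowest in HOXB (326 ± 15.6).

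HOXA13 was the member with the deepest fall from parental in each clone. HOXA13 (ENSG00000106031, chromosome 7, 27193503 to 27200106, minus strand; GENCODE 29 on GRCh38, as are all gene positions here) is the outermost gene of its cluster and patterns the hand, foot and genitourinary tract. It had 129, 119 and 121 CPM in parental, 52.5, 48.8 and 52.7 in clone 15, against 42.4, 40.9 and 47.2 in clone 37. All 6 clone libraries lay far below every parental library. In clone 37 it fell 2.87-fold (log2 fold change -1.52, SE 0.07, adjusted p 7.12e-12). The fall in clone 15 was 2.45-fold (-1.29, SE 0.08, adjusted p 1.67e-12). Between the clones it was -0.23 (SE 0.07, adjusted p 0.00834), a call lost without clone 37 replicate 1 (-0.20) or 2 (-0.18) and with unstranded counts (-0.17). Other HOXA genes did not follow it in clone 15, and its share of all HOXA counts went from 31.0% ± 0.677 in parental to 12.9% ± 0.977 in clone 15 and 17.8% ± 1.47 in clone 37 (SD, n = 3).

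The genes next to HOXA13 gave other patterns. HOXA11 and HOXA10 follow it on the same strand, and both act in the uterus, HOXA11 also in the forearm and kidney. HOXA10 (ENSG00000253293, 27170591 to 27180261) had 67.8, 72.1 and 65.8 CPM in parental, 96.3, 109 and 95.7 in clone 15, and clone 37 gave 45.9, 45.0 and 44.5. The 3 groups stood apart from one another, with clone 15 highest and clone 37 lowest. HOXA10 rose in clone 15 (log2 fold change 0.52, SE 0.08, adjusted p 1.39e-05) and fell in clone 37 (-0.63, SE 0.07, adjusted p 5.65e-07). HOXA11 (ENSG00000005073, 27181510 to 27185223) had 32.8, 36.8 and 30.7 CPM in parental, 43.5, 46.0 and 47.0 in clone 15, while clone 37 had 29.9, 30.8 and 28.4. HOXA11 rose in clone 15 (0.41, SE 0.10, adjusted p 0.000978). For clone 37, whose libraries overlapped parental by a narrow margin, the value was -0.20 (SE 0.09, adjusted p 0.0595). Thus HOXA13 fell in both clones over the same 9 libraries in which HOXA10 and HOXA11 rose in clone 15. Between the clones HOXA10 (-1.15) and HOXA11 (-0.61) were both lower in clone 37. Whether HOXA10 and HOXA11 changed differently from each other was not tested.

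The DNA just ahead of these genes is shown because their counts part ways within a short stretch of chromosome 7. Each line gives the 250 bases before an annotated RefSeq start, 5′ to 3′ on the minus strand of GRCh38.p14, and capitals mark CG dinucleotides, the sites of DNA methylation in mammals. The windows are chr7:27200092-27200341 for HOXA13, chr7:27185233-27185482 for HOXA11 and chr7:27179862-27180111 for the upstream one of 2 starts of HOXA10.
HOXA13: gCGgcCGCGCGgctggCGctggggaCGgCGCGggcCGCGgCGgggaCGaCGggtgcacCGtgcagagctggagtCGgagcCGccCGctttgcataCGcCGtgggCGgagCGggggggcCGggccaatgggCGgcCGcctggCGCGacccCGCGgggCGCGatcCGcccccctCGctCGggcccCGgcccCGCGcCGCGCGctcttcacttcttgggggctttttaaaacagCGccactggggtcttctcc
HOXA11: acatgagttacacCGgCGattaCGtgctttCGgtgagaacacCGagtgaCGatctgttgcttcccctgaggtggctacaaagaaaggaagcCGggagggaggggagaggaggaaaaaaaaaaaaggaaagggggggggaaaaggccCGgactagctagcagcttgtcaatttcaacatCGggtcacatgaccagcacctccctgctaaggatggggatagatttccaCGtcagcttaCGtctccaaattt
HOXA10: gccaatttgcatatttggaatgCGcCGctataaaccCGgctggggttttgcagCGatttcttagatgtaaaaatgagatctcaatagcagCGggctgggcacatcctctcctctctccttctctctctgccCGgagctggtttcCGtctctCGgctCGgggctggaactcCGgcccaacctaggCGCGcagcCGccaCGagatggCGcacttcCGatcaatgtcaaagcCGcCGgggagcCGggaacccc
The HOXA13 window holds 40 CG dinucleotides, more than 97.8% of all 35116 promoter windows in the RefSeq table. The HOXA11 window holds 11, more than 49.7% of windows, and the HOXA10 window shown holds 19, more than 65.4%. The window of the other HOXA10 start, not shown, holds 24, more than 76.3%. DNA methylation was not measured in this series. The table had 27 windows for 20 of the 38 members. HOXA3 had the most of these, and HOXB1 was the only HOXB gene among them. HOXC4 and HOXC5 had an identical window, which is counted for each. Over the full windows of 300 bases, which run 50 bases past the start, the ratio of observed to expected CG was computed. Its median was 0.849 for these 27 windows, which do not cover the members evenly, against 0.579 for all windows.

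Short motifs were looked for in the same 300-base windows on both strands. TATAAA, the TATA box letters, was in 5 of the 27 members' windows, those of HOXA3, HOXA9, HOXD13 and both starts of HOXA10, and in 11.5% of all windows. TTTATG, a core shared by CDX and group 13 HOX proteins, was in 3 members' windows (HOXA3, HOXA9 and HOXD8) and in 10.6% of all. TGATNNAT, a PBX and HOX composite, was in those of HOXA2, HOXB1 and HOXD11 and in 7.40% of all. AGGTCA, the unit of retinoid receptor elements, was in none of the 27 and in 13.8% of all, and CAGCAGCAG in none and in 1.81% of all. A match or its absence says only which letters these windows hold. The longest run of CAG in any member's transcripts was 3 units.

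In the rest of HOXA, HOXA3, HOXA4, HOXA5, HOXA6 and HOXA9 fell in clone 37, and HOXA3, HOXA4, HOXA6 and HOXA7 rose in clone 15. HOXA3, which acts in the pharyngeal arches, had 29, 23.3 and 30.8 CPM in parental, 33.3, 35.5 and 33.7 in clone 15, against 18.1, 20.1 and 16.8 in clone 37, with no overlap between groups. HOXA3 fell in clone 37 (-0.62, SE 0.11, adjusted p 8.78e-05) and rose in clone 15 (0.28, SE 0.10, adjusted p 0.0202). The clone 15 call rested on parental replicate 2, without which the value was 0.18 and not called, and it was also lost with unstranded counts (0.16). HOXA4 and HOXA6 were also lower in clone 37 (-0.69 and -0.44) and higher in clone 15 (0.58 and 0.48). The HOXA4 calls were fragile: the one in clone 15 was lost without parental replicate 2 (0.34) and without clone 15 replicate 2 (0.59) or 3 (0.55), and the one in clone 37 without parental replicate 1 (-0.71) or 3 (-0.41) and without clone 37 replicate 1 (-0.61) or 2 (-0.67). Those of HOXA6 were lost in clone 37 without parental replicate 1 (-0.33) or clone 37 replicate 2 (-0.44), and in clone 15 with unstranded counts (0.25). HOXA4 shares 31.0% of its exonic bases with an overlapping same-strand gene model, so its counts are uncertain.

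HOXA5, a regulator of lung development and the most abundant HOXA gene per length, had 64.5, 56.0 and 62.1 CPM in parental, 65.0, 66.6 and 64.8 in clone 15, and clone 37 gave 39.9, 44.8 and 43.8. HOXA9, known from blood progenitors and leukaemia, had 40.2, 37.1 and 39.9 CPM in parental, 36.8, 40.5 and 37.5 in clone 15, while clone 37 had 27.9, 25.5 and 28.0. Both genes fell in clone 37 by about the same amount, with log2 fold changes of -0.53 (SE 0.07, adjusted p 8.78e-06) and -0.55 (SE 0.08, adjusted p 1.37e-05). In clone 15 their values were 0.08 and -0.06 and were not called. HOXA7, a central gene, had 7.86, 8.06 and 7.65 CPM in parental, 12, 12.4 and 10.7 in clone 15, against 10.5, 10.7 and 8.10 in clone 37. All 6 clone libraries lay above parental, and the rise was called in clone 15 (0.55, SE 0.14, adjusted p 0.00194) but not in clone 37 (0.28, adjusted p 0.107). An antisense gene covers 62.5% of the exonic bases of HOXA7, which the strand-specific counts keep apart. HOXA2, a hindbrain and face gene, stayed between 2.09 and 4.29 CPM in all 9 libraries and was not called in any comparison.

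**Figure D3:**
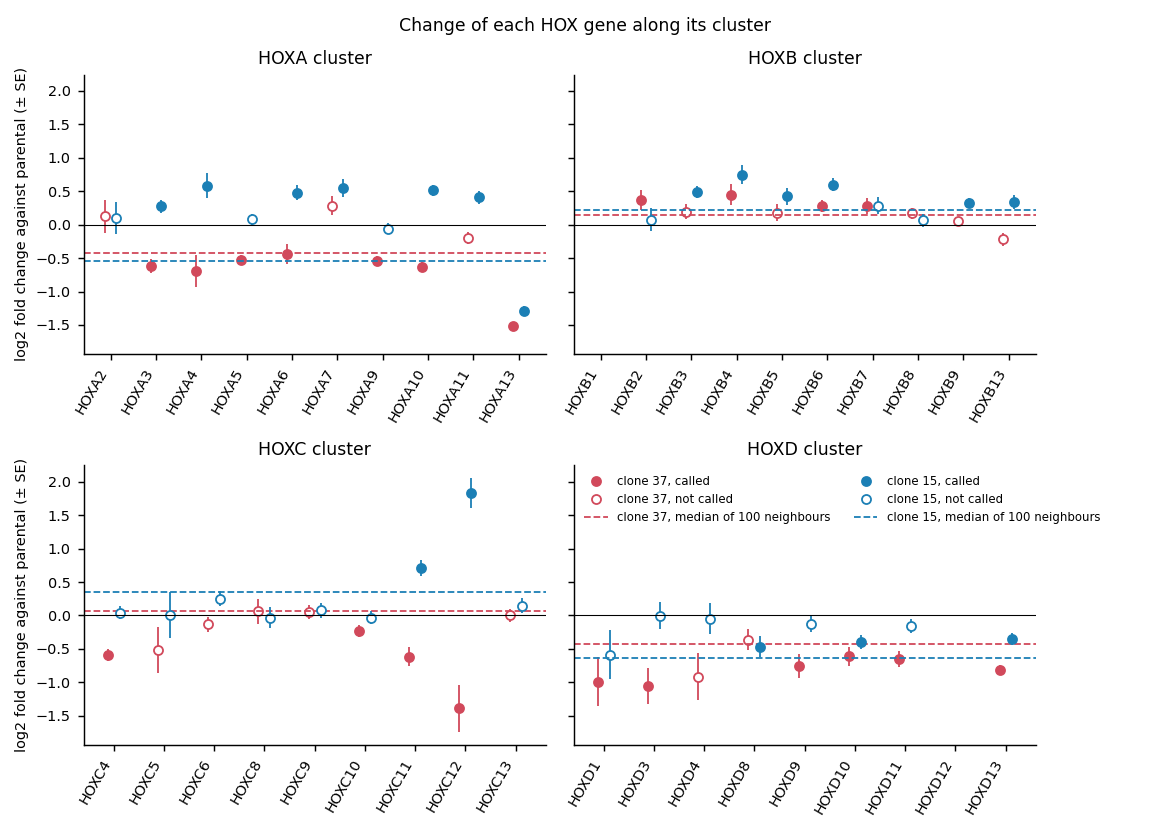
Log2 fold change of each tested HOX gene against parental (vertical axis, ± SE), in paralog order from anterior to posterior within each cluster; filled points were called at an adjusted p under 0.05, and dashed lines give the median of the 100 nearest tested genes outside the cluster. HOXA13 is low in both clones (-1.52 and -1.29), and HOXC12 is lowest of its cluster in clone 37 (-1.39) and highest in clone 15 (1.83).

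All HOXB genes called against parental were higher, 4 in clone 37 and 6 in clone 15. HOXB4, known for expanding blood stem cells when added to them, had 10.2, 6.47 and 10.3 CPM in parental, 14.6, 15.8 and 15.3 in clone 15, and clone 37 gave 12.9, 13.2 and 11.1. The groups did not overlap, and clone 15 was highest. HOXB4 rose in clone 15 (0.74, SE 0.14, adjusted p 0.000112) and less so for clone 37 (0.45, SE 0.16, adjusted p 0.022), the latter call being lost without parental replicate 2 (0.24) and without clone 37 replicate 1 or 2 (0.41 in each case). HOXB6 had 42.8, 35.1 and 47.1 CPM in parental, 59.2, 71.3 and 62.1 in clone 15, while clone 37 had 50.7, 51.9 and 51.5. It rose in both (0.60, SE 0.10, adjusted p 1.06e-05 and 0.28, SE 0.09, adjusted p 0.0106), and its 3 groups did not overlap. The clone 37 call was lost without clone 37 replicate 3 (0.25), with unstranded counts (0.19) and against chromosome neighbours (0.13).

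HOXB3 (0.49), HOXB5 (0.42), HOXB9 (0.32) and HOXB13 (0.34) were higher in clone 15 alone by the call. Whether a member's change differed between the clones is what the test of clone 37 against clone 15 shows, and all 4 were lower in clone 37 than in clone 15 there, from -0.24 for HOXB5 to -0.55 for HOXB13. The HOXB5 call between the clones held in 7 of 15 alternatives, and was lost with DESeq2 and without any 1 clone 37 library or clone 15 replicate 1. HOXB9 had 144, 148 and 139 CPM in parental, 177, 182 and 193 in clone 15, against 162, 144 and 152 in clone 37. Clone 15 lay above all other libraries, and clone 37 overlapped parental. HOXB13, a prostate transcription factor that lies far from the other HOXB genes, had 18.7, 21.4 and 21.6 CPM in parental, 24.6, 26.9 and 28.5 in clone 15, and clone 37 gave 17.3, 19.3 and 17.6. Without parental replicate 1 its clone 15 value was 0.25 and not called. HOXB2 (0.37, adjusted p 0.0441) and HOXB7 (0.28, adjusted p 0.05 after rounding) were called higher in clone 37 by a narrow margin, and HOXB8 (0.17 and 0.06) in neither clone. HOXB2 kept its call in 4 of 15 alternative settings and HOXB7 in 2.

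In HOXC, HOXC11 and HOXC12 differed most between the clones. HOXC12 (ENSG00000123407, chromosome 12, 53954834 to 53958956, plus strand) is one of the outermost posterior genes, on in the tail end of the embryo. It had 1.94, 1.58 and 1.38 CPM in parental, 6.27, 6.01 and 5.41 in clone 15, while clone 37 had 0.457, 0.677 and 0.729. No group overlapped another. HOXC12 rose 3.57-fold in clone 15 (log2 fold change 1.83, SE 0.22, adjusted p 1.64e-07) and fell 2.62-fold in clone 37 (-1.39, SE 0.35, adjusted p 0.00302). The clones differed 9.39-fold (-3.23, SE 0.25, adjusted p 1.06e-11), the widest gap among the 36 members. The clone 37 value rests on 5, 7 and 9 counts per library, and all 3 calls held in each of the 15 alternative settings run.

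HOXC11, the neighbour of HOXC12, showed the same order at a higher level. HOXC11 (ENSG00000123388, 53973126 to 53977643) had 11.7, 10.4 and 11.9 CPM in parental, 17.9, 21.0 and 18.0 in clone 15, against 7.40, 6.48 and 8.58 in clone 37, again apart from one another. It rose in clone 15 (0.71, SE 0.12, adjusted p 2.59e-05) and fell in clone 37 (-0.62, SE 0.14, adjusted p 0.00119). HOXC13, the outermost gene of the cluster and a regulator of hair keratins, was called in neither clone: it had 18.3, 22.3 and 20.2 CPM in parental, 20.7, 26.9 and 21.7 in clone 15, and clone 37 gave 19.7, 22.3 and 20.4. The groups overlapped, and its log2 fold changes were 0.00 in clone 37 and 0.15 in clone 15.

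Of the other HOXC genes, HOXC4 fell in clone 37, where it had 31.0, 29.7 and 28.5 CPM, against 48.3, 36.9 and 47.2 in parental and 46.7, 45.7 and 46.3 in clone 15. Against parental its change was -0.59 for clone 37 (SE 0.09, adjusted p 3.77e-05) and 0.04 for clone 15. HOXC10, a hindlimb gene, was lower in clone 37 (-0.24, adjusted p 0.0335), a call kept in 8 of 15 alternatives. HOXC6, HOXC8 and HOXC9, genes of the trunk, were not called against parental, with log2 fold changes from -0.13 to 0.06 in clone 37 and from -0.04 to 0.25 in clone 15. Between the clones HOXC6 was lower in clone 37 (-0.38, adjusted p 0.00102). HOXC5 stayed between 0.891 and 2.36 CPM and shares 59.9% of its exonic bases with overlapping gene models on its strand.

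**Figure D4:**
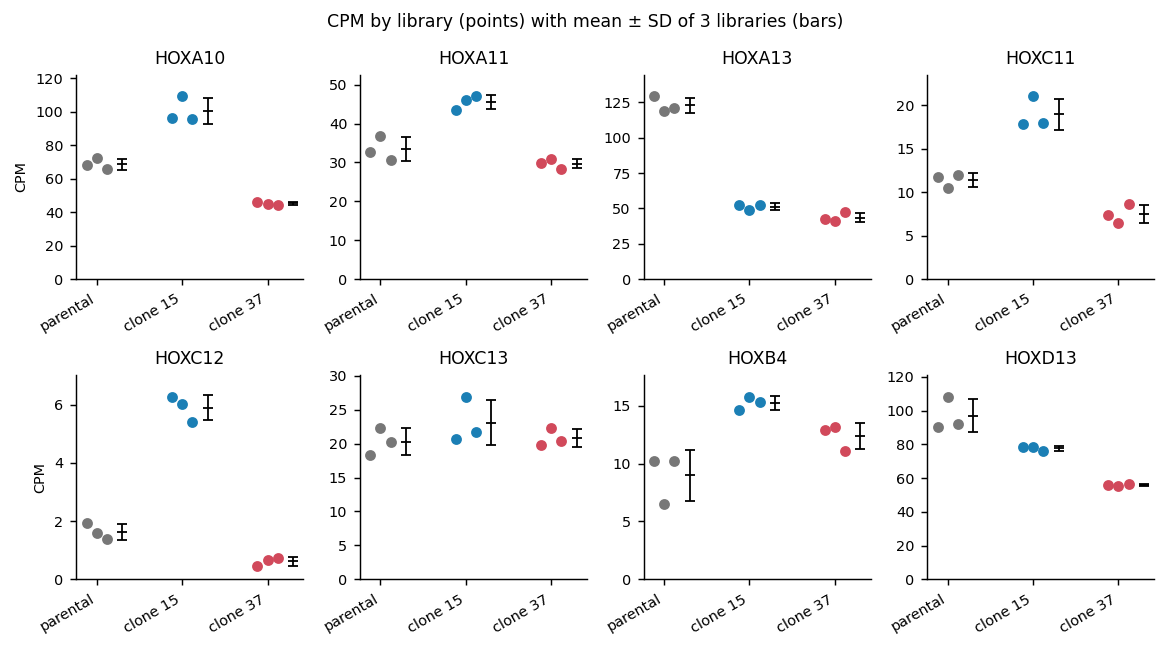
CPM of 8 HOX genes in each library (points, vertical axes from 0) with mean ± SD of 3 libraries (bars). HOXA10, HOXC11 and HOXC12 are ordered clone 15, parental, clone 37 without overlap, HOXA13 is low in both clones (51.3 and 43.5 against 123 CPM), and HOXC13 overlaps in all groups.

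HOXD had lower calls only, in both clones against parental. HOXD13 (ENSG00000128714, chromosome 2, 176092891 to 176095938, plus strand), the digit gene at the end of its cluster and a paralog of HOXA13, had 90.5, 108 and 91.9 CPM in parental, 78.4, 78.4 and 76.0 in clone 15, while clone 37 had 56.1, 55.4 and 56.4. The groups stepped down in that order without overlap. HOXD13 fell by 0.82 on the log2 scale from parental to clone 37 (SE 0.08, adjusted p 9.11e-08). Its change in clone 15 was -0.35 (SE 0.09, adjusted p 0.00152), and it was -0.47 between the clones (SE 0.06, adjusted p 2.55e-07). HOXD10, which acts in lumbar motor neurons, had 99.1, 67.2 and 99.0 CPM in parental, 66.2, 68.2 and 69.9 in clone 15, against 57.8, 59.3 and 59.1 in clone 37. Parental replicate 2 lay within the clone 15 range, so these groups overlapped, and clone 37 was lower than both. HOXD10 fell in both, by 0.61 on the log2 scale in clone 37 (SE 0.14, adjusted p 0.00758) and by 0.40 for clone 15 (SE 0.10, adjusted p 0.00246), the latter call being lost without clone 15 replicate 1 (-0.37) or 2 (-0.38).

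HOXD11, like HOXA11 a gene of the forearm and kidney, had 29.1, 22.8 and 23.7 CPM in parental, 23.2, 24.7 and 21.1 in clone 15, and clone 37 gave 15.5, 19.0 and 14.6. It fell in clone 37 (-0.65, SE 0.11, adjusted p 0.000124) and was not called in clone 15 (-0.15), where it overlapped parental. HOXD9 fell in clone 37 (-0.76, adjusted p 0.00663), and HOXD8 was lower in clone 15 (-0.46, adjusted p 0.0182) and not called in clone 37 (-0.36, adjusted p 0.0607). The HOXD8 call was lost without parental replicate 2 (-0.35) and without clone 15 replicate 1 (-0.39) or 2 (-0.44), and thinned to the smallest library its value was -0.23. Among the anterior genes, HOXD3 fell in clone 37 (-1.05, SE 0.27, adjusted p 0.00708), from 9.81, 5.97 and 13.5 CPM to 4.29, 5.42 and 4.61. HOXD1 was lower there as well (-0.99, adjusted p 0.0324), at 1.39, 1.08 and 1.07 CPM in parental against 0.639, 0.484 and 0.648, a call lost without parental replicate 1 and without any 1 clone 37 library. HOXD4 was not called in clone 37 (-0.91, adjusted p 0.0554), but was called when parental replicate 2 was left out (-1.24). HOXD3 and HOXD4 share 62.2% and 80.5% of their exonic bases with an overlapping gene model on the same strand, so their counts are uncertain.

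Paralogs moved alike in some groups and apart in others. Between the clones, each tested member of groups 3, 4, 6, 10 and 11 was lower in clone 37, although the HOXC10 call (-0.21, adjusted p 0.0439) held in 6 of 15 alternatives and was lost without clone 37 replicate 2 or 3 or clone 15 replicate 3. In group 13, against parental in clone 37, HOXA13 and HOXD13 fell (-1.52 and -0.82) while HOXB13 (-0.22) and HOXC13 (0.00) were not called. In clone 15 HOXA13 and HOXD13 fell (-1.29 and -0.35), HOXB13 rose (0.34) and HOXC13 was not called (0.15). Group 11, the kidney paralogs, had HOXC11 and HOXD11 lower in clone 37 and HOXA11 and HOXC11 higher in clone 15. In group 4, HOXB4 was higher in both clones, HOXA4 changed in opposite directions, HOXC4 fell in clone 37, and HOXD4 was called in neither. All 3 members of group 10 fell in clone 37, and in clone 15 HOXA10 rose, HOXD10 fell and HOXC10 was not called.

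The chromosomes around the clusters had changes of their own, which stand beside every result above. For each cluster the 100 nearest tested genes outside it were taken. Around HOXA the median log2 fold change of these neighbours was -0.43 in clone 37 and -0.54 in clone 15, and around HOXD -0.43 and -0.63. Around HOXB it was 0.15 and 0.22, and around HOXC 0.07 and 0.35. Of 17 border genes listed, 5 of 12 tested were lower and 1 higher in clone 37, and 5 of 13 lower and 2 higher in clone 15 (all genes 27.3% and 26.7%, then 26.2% and 25.1%). The windows ran over 5.30 to 22.1 Mb, and the medians of the whole chromosomes had the same signs. SKAP2 and HIBADH, which flank HOXA, were lower in clone 37 (-0.56 and -0.80) and in clone 15 (-0.59 and -0.88), and LNPK and MTX2, which flank HOXD, likewise (-0.50 and -0.54 in clone 37, -1.15 and -0.43 in clone 15). CBX5, a heterochromatin protein gene beyond HOXC, fell in clone 15 (-0.93) from 836 ± 12.1 to 448 ± 20.7 CPM (SD, n = 3) and was higher in clone 37 than in clone 15 (1.08). Near HOXB, PRAC2 (-1.54) and TTLL6 (-0.83) were lower in clone 37 than in clone 15, both at low levels. PRAC2 had 1.04 ± 0.260 CPM in clone 15 and 0.366 ± 0.187 in clone 37 (SD, n = 3). TTLL6 had 1.94 ± 0.440 and 1.08 ± 0.157 CPM.

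Tested against these neighbours, clone 37 had 2 members higher (5.56%, against 20% of all genes in the same test) and 8 lower (22.2%, against 23%). The share of lower members was thus near that of all genes. HOXA7 (0.71) and HOXA11 (0.23) were higher than their surroundings, and HOXA10 (-0.20), HOXA13 (-1.09), HOXB13 (-0.37), HOXC4 (-0.66), HOXC10 (-0.31), HOXC11 (-0.69), HOXC12 (-1.46) and HOXD13 (-0.39) lower. Of the 7 HOXA and 6 HOXD genes called lower than parental, 3 were thus also called lower than the genes around them. In clone 15 the same test gave 18 higher (50%, against 19.3% of all genes) and 3 lower (8.33%, against 23.2%). Of the HOXA genes, 9 of 10 stood above their neighbours, from 0.49 for HOXA9 to 1.13 for HOXA4, and HOXA13 stood below (-0.75). In HOXD, HOXD3, HOXD9, HOXD11 and HOXD13 were above their neighbours by 0.28 to 0.63, although HOXD13 was lower than in parental cells. In HOXB, the clone 15 calls of HOXB5 (0.20), HOXB9 (0.10) and HOXB13 (0.11) were lost against neighbours. Between the clones 22 members were lower in clone 37 (61.1%, against 24.8% of all genes) and 4 higher (11.1%, against 26%), which were HOXB2, HOXB8, HOXC8 and HOXC9 at 0.20 to 0.38. The calls between the clones of HOXB4 (-0.21), HOXB5 (-0.15), HOXC6 (-0.10) and HOXC10 (0.08) were lost there.

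The long noncoding and antisense genes of the clusters were given by a list of 18, of which 15 were tested. Against parental, clone 37 had 6 called lower by edgeR and the rest not called, and clone 15 had 4 lower and 1 higher (all genes lower and higher 27.3% and 26.7% in clone 37, 26.2% and 25.1% in clone 15). HOXA11-AS, the antisense gene of HOXA11, had 10.7, 7.91 and 12 CPM in parental, 10.9, 13.2 and 13.0 in clone 15, while clone 37 had 4.38, 3.10 and 2.91. Clone 37 lay below both other groups (-1.58 against parental, SE 0.20, adjusted p 3.05e-06), whereas HOXA11 itself was not called there. HOTTIP, which starts beside HOXA13 and is known as an activator of the posterior HOXA genes, fell in clone 37 (-1.11, SE 0.31, adjusted p 0.00582) from 2.09 ± 0.0706 to 0.967 ± 0.328 CPM (SD, n = 3) and was not called in clone 15 (-0.47, adjusted p 0.171), where HOXA13 fell. HOTAIRM1, at the anterior end of HOXA, was lower in clone 37 (-0.91, adjusted p 0.000455). HOTAIR, an antisense gene between HOXC12 and HOXC11, had 17.4, 11.7 and 15.2 CPM in parental, 14.6, 16.2 and 19.5 in clone 15, against 8.58, 7.64 and 8.01 in clone 37, lower in clone 37 than in clone 15 (-1.03, adjusted p 6.62e-08). In clone 15 HOXA-AS3 (-1.22), HOXC-AS2 (-0.72) and HOXA-AS2 (-0.59) were lower, HOXC-AS1 was lower in clone 15 than in clone 37 (0.97 for clone 37 against clone 15), and HOXC13-AS, the partner of HOXC13, was higher than in parental (0.59, adjusted p 0.0205). Against their chromosome neighbours the calls of HOTTIP in clone 37 (-0.69) and of HOXA-AS2 (-0.05) and HOXC13-AS (0.23) in clone 15 were lost.

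The cofactors that bind DNA with HOX proteins were lower in clone 37 for the most part. Of 9 genes, 7 were lower and 2 higher in clone 37, where 27.3% of all genes were lower and 26.7% higher. In clone 15, 3 were lower and 2 higher, near the 26.2% and 25.1% of all genes. MEIS1, which forms complexes with PBX and HOX proteins, stood at 38.4 ± 2.55 CPM in parental, 31.2 ± 1.34 with clone 15 and 17.3 ± 0.928 in clone 37 (SD, n = 3). It fell in clone 15 (-0.33, adjusted p 0.00329) and in clone 37 (-1.18, adjusted p 3.71e-09). PKNOX2 fell in clone 37 (-0.76). MEIS3 was called lower in clone 15 (-0.42) and in clone 37 (-0.53). PBX2 was called higher in clone 15 (0.34) and lower in clone 37 (-0.20). Against their 100 chromosome neighbours the clone 15 calls of MEIS1 (0.19) and PBX2 (0.05) were lost, that of MEIS1 with a turned sign. The clone 37 call of MEIS3 (-0.14) was lost there as well.

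Genes of the complexes that set HOX chromatin were called in both directions. Of 31 Polycomb genes, 13 were lower and 7 higher in clone 37 (all genes 27.3% and 26.7%), and 6 lower and 5 higher in clone 15 (all genes 26.2% and 25.1%), with medians of -0.09 and 0.02. The clone 15 counts are below the share of all genes. EZH2, the methyltransferase that places the Polycomb mark, fell in clone 37 from 103 ± 6.28 to 59.9 ± 1.38 CPM (SD, n = 3; -0.80, SE 0.06, adjusted p 8.37e-09) and was at 101 ± 2.99 in clone 15. CBX8, which reads that mark, was lower in clone 37 (-0.59), and PHF1 was higher in clone 15 (0.65). EPOP was called higher in clone 15 (0.43) and in clone 37 (0.22). MTF2, like PHF1 an accessory subunit, was called lower in clone 15 (-0.59) and in clone 37 (-0.30). RING1, a subunit of the complex that modifies histone H2A, was lower in clone 37 than in clone 15 (-0.65). Against chromosome neighbours the calls of EZH2 in clone 37 (0.13, the sign turned) and of EPOP (0.20) and MTF2 (-0.16) in clone 15 were lost. The clone 37 calls of EPOP (0.09) and MTF2 (-0.05) were lost there as well. Of 12 Trithorax genes and activators, 3 were lower and 6 higher in clone 37, and 3 lower and 4 higher in clone 15, against 27.3% lower and 26.7% higher, then 26.2% and 25.1%, of all genes. PSIP1, which ties MLL complexes to chromatin, was at 352 ± 26.7 CPM in parental and lower in both clones (-1.01 and -0.53). KDM6B, a demethylase that removes the Polycomb mark, was lower in clone 37 (-0.72), DOT1L, the methyltransferase that marks active HOX genes, higher there (0.49), and MEN1, the MLL partner menin, higher in clone 15 (0.58) with ASH2L lower (-0.41).

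Retinoic acid is the classical inducer of HOX genes, and 21 genes of its pathway and of the CDX family were listed. In clone 37, 8 of the 16 tested were lower and 4 higher (all genes 27.3% and 26.7%), and in clone 15, 5 of 17 were lower and 4 higher, near the shares of all genes (26.2% and 25.1%). CRABP2, which carries retinoic acid to the nucleus, fell from 52.9 ± 7.28 CPM in parental to 27.5 ± 1.06 in clone 15 and 5.57 ± 0.720 in clone 37 (SD, n = 3), with log2 fold changes of -0.98 and -3.27. ALDH1A1, an enzyme that makes retinoic acid, went from 5.33 ± 0.725 to 2.01 ± 0.607 and 0.352 ± 0.139 CPM (SD, n = 3; -1.47 and -3.89). RARB, a receptor gene that retinoic acid itself induces, was lower in clone 15 (-1.17), with a mean of 9.64 CPM against a parental mean of 21.2. Its mean level was low in the other clone too, at 10.9 CPM for clone 37. RXRG, a partner receptor of RARB, was lower in clone 37 (-1.93). Between the clones 12 of the 17 were lower in clone 37 and 2 higher (all genes 29% and 28.7%).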

How the data were processed

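Stranded, rRNA-depleted, paired-end RNA-seq was made from 3 libraries in each of 3 groups. The deposited values are counts of reads per gene, whole numbers with no normalization, and the submitters' processing notes name STAR 2.7.10a, FastQC 0.11.9 and hg38, while the annotation release is not given in the sources used here. Column 4, the transcript's strand, was used, and the 4 summary entries that name no gene were left out. Gene positions and exonic lengths come from GENCODE 29 on GRCh38, and promoter sequences from RefSeq. The depth of 10334090 to 38093340 counts limits genes near 1 CPM.

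Each pair of groups was fitted alone with edgeR 4.0.16 (R 4.3.3; filterByExpr, TMM factors, robust quasi-likelihood F test), and p-values were adjusted by Benjamini-Hochberg over all genes tested. Calls were made at an adjusted p under 0.05. SE is the log2 fold change divided by the square root of F. Levels are CPM of all gene counts, and levels between genes are CPM per kilobase of exon. For the neighbours, the median log2 fold change of the 100 nearest tested genes was subtracted before testing. In simulated counts with 200 changed genes, 84% of 2-fold and 64% of 1.5-fold changes were recovered for clone 37 against parental, 80% and 59% for clone 15 against parental, and 85% and 61% for clone 37 against clone 15. Of the calls made there, 6.33%, 5.44% and 7.59% were of genes not changed. Far fewer genes were changed there than were called in the data, where clone 37 against parental had 54%. These shares therefore do not give the recovery or the false calls of the reported tests. Alternatives were RLE factors, DESeq2 1.42.0, other filters, unstranded counts, all 9 libraries fitted together, thinning, a replicate block, neighbours and leaving out each library. No pair of libraries was identical. The members and the gene lists were chosen with earlier results of these data known. All members are described. Of the lists of cofactors, regulators, noncoding and border genes, the 3 largest called changes in each comparison are named, and markers of HEK293T and other cells are given by level. Of these, 2 genes are not reported here. HOXC13-AS was chosen after its values were seen. The comparisons with parental share its 3 libraries.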

Additional observations from a re-analysis of the deposited data

Results flagged for a closer look

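Changes in opposite directions in the clones were seen for 6 members, each higher than parental in clone 15 and lower in clone 37, so that a lower value in clone 37 than in clone 15 follows from how they were picked and is given as a description. The log2 fold change of clone 37 against clone 15 was -3.23 for HOXC12, -1.32 for HOXC11, -1.27 for HOXA4, -1.15 for HOXA10, -0.92 for HOXA6 and -0.90 for HOXA3. HOXA10, HOXC11 and HOXC12 were called in both clones under every one of the 15 alternatives run. The calls against parental of HOXA3, HOXA4 and HOXA6 were lost under some alternatives, and the values against parental share the parental libraries.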

How the results depend on the processing

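Replicate numbers did not pair the samples (correlation of same-numbered deviations -0.262 to 0.0916). With the number as a replicate block, clone 37 against parental gave 3 members higher and 15 lower, clone 15 gave 15 and 4, and the clones gave 1 (HOXB2, 0.31) and 25. The count of members higher in clone 37, 4 as reported, was 2 with RLE factors, with DESeq2, with the 1 CPM filter and with all 9 libraries in 1 fit, 1 with unstranded counts, and 1 to 3 without single libraries. Against neighbours it was 2, with 0 of the 4 among them. The count of lower members, 17, was 8 against neighbours, 7 of them among the 17, and 14 to 19 without single libraries. In clone 15 the count of higher members, 14, was 12 to 15 without single libraries, and that of lower members, 4, was 2 when thinned and 2 to 4 without single libraries. Between the clones the count of higher members was 1 with unstranded counts, 4 against neighbours and 0 to 1 without single libraries, and the count of lower members, 25, was then 22 to 26. Among members called in at least 1 of the fits compared, directions turned only against neighbours, by construction a shift: HOXA11 in clone 37 (0.23), in clone 15 HOXA9 (0.49), HOXC4 (-0.31), HOXD3 (0.63), HOXD8 (0.17), HOXD9 (0.51), HOXD10 (0.24), HOXD11 (0.48) and HOXD13 (0.28), and between the clones HOXC9 (0.26) and HOXC10 (0.079). The cause of the other lost calls was not tested. Depth limits HOXB1, HOXD12, HOXC12 and HOXD1.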
